A study of Mus musculus with 33 samples.

Results

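The genes described here are the ligands, agonists, receptors, secreted antagonists, nuclear factors and feedback targets of WNT signalling. They were followed over embryonic stages in mouse tissue labelled as frontal bone, a flat bone of the skull vault. They were defined by gene symbol, with earlier results of these data known, which gave 52 genes of the 55401 in the count table. There were 19 Wnt ligands, 4 R-spondins (Rspo1 to Rspo4), 13 receptors (Fzd1 to Fzd10, Lrp5, Lrp6 and Lgr5), 10 secreted antagonists (Dkk1 to Dkk4, Sfrp1, Sfrp2, Sfrp4, Sfrp5, Wif1 and Sost), 4 nuclear factors (Lef1, Tcf7, Tcf7l1 and Tcf7l2) and 2 feedback targets (Axin2 and Nkd1). Poly(A) RNA was sequenced from tissue labelled as frontal bone at 11 stages from E8.5 to E14.5, where E gives the days of embryonic development, with 3 libraries a stage and 33 in all. The labels name no genotype, strain or treatment. Nor do they state if each library is its own embryo or pool, so every p-value reflects the spread between libraries and nothing further. The libraries of a stage are given in the order of the letters a, b and c in the table.

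WNT proteins are secreted lipid-bearing ligands that bind a Frizzled receptor, and in the canonical branch also Lrp5 or Lrp6, which stops the destruction of beta-catenin and lets it join the TCF and LEF factors on DNA. R-spondins bind Lgr receptors and keep Frizzled proteins at the cell surface, whereas SFRP proteins and WIF1 bind the ligands, and DKK1 and sclerostin (Sost) block the Lrp co-receptors. Axin2, a part of the beta-catenin destruction complex, and Nkd1, a Dishevelled-binding inhibitor, are induced by canonical signalling and in turn restrain it. In the skull vault the pathway is known for the choice between bone and cartilage fates in cranial mesenchyme, and in the neighbouring forebrain and surface ectoderm for patterning and appendage formation.

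Library totals ran from 14516518 to 19964404 counts, and the 52 genes took between 0.1497% and 0.2483% of them. The libraries labelled E12 and E13.5 were the least alike within a stage. Over the 42 pathway genes averaging at least 5 CPM (counts scaled to a common library size with a correction for composition), the median coefficient of variation between the 3 libraries was 17.1% at E12 and 13.9% at E13.5, and at the other 9 stages it lay between 4.61% and 8.60%. The comparisons below set other stages against each other, but the libraries of both were in the fit and bear on its estimate of the spread. In a fit without the libraries of E11.5, E12 and E13.5, 14 of the gene values that had not passed in a comparison did pass, and none that had passed was lost. Markers of other tissues moved with stage, and the summed level of 10 neural progenitor markers (Sox1, Sox2, Pax6 and others) was above that of 7 osteoblast markers at every stage up to E12.5. At E12.5 the neural progenitor sum lay between 1460 and 1560 CPM and the osteoblast sum between 268 and 326 CPM, and Dmp1, a late osteoblast gene, was at 0 counts at E8.5, E9 and E9.5. The stages did not follow a smooth order, since the osteoblast sum was 490 ± 15 CPM at E11.5, above the 295 ± 30 CPM of E12.5 (SD, n = 3 each).

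In edgeR's quasi-likelihood fit over all libraries, 51 of the 52 genes could be tested. The exception was Wnt8a, which had 49 counts in the 33 libraries together. All 51 differed over the 11 stages at a Benjamini-Hochberg adjusted p below 0.05, as did 95.3% of the 20073 genes tested. Between E14.5 and E8.5, 25 of the 51 genes were higher at E14.5, where 41.1% of all tested genes were, and 21 were lower, where 33.5% of all were. Between E10.5 and E8.5, 18 were higher and 17 lower, against 28.2% and 21.3% of all tested genes. With scaling by library totals alone 20 of the 51 genes were higher and 10 lower there, beside 7190 higher and 2728 lower over all tested genes. Between E12.5 and E10.5, 18 were higher and 15 lower, against 18.8% and 17.2% of all. Between E14.5 and E12.5, 24 were higher and 20 lower, against 25.3% and 28.6% of all. The median log2 fold change of the 51 genes was 0.38, 0.00, 0.04 and 0.57 in these comparisons in turn, beside 0.16, 0.09, 0.03 and -0.03 over all tested genes. The comparisons share stages and are not independent of each other. As these are whole-tissue libraries, fewer cells of a type and less RNA per cell cannot be told apart.

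By role, more ligands and antagonists were higher than lower at E14.5 relative to E8.5, whereas every nuclear factor and feedback target was lower. In this comparison 41.1% of all tested genes were higher and 33.5% lower. Of the 18 tested ligands, 12 were higher at E14.5 than at E8.5 and 5 lower, with a median log2 fold change of 1.46. Of the 10 antagonists, 7 were higher and 3 lower, with a median of 2.12. The 4 nuclear factors had a median of -1.16 and the 2 feedback targets one of -0.59. With library totals alone the calls of Tcf7l2 (-0.02, adjusted p = 0.816) and Axin2 (-0.04, adjusted p = 0.834) were lost. Of the 13 receptors, 4 were higher and 7 lower, and of the 4 R-spondins 2 were higher and 2 did not pass.

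**Figure D1:**
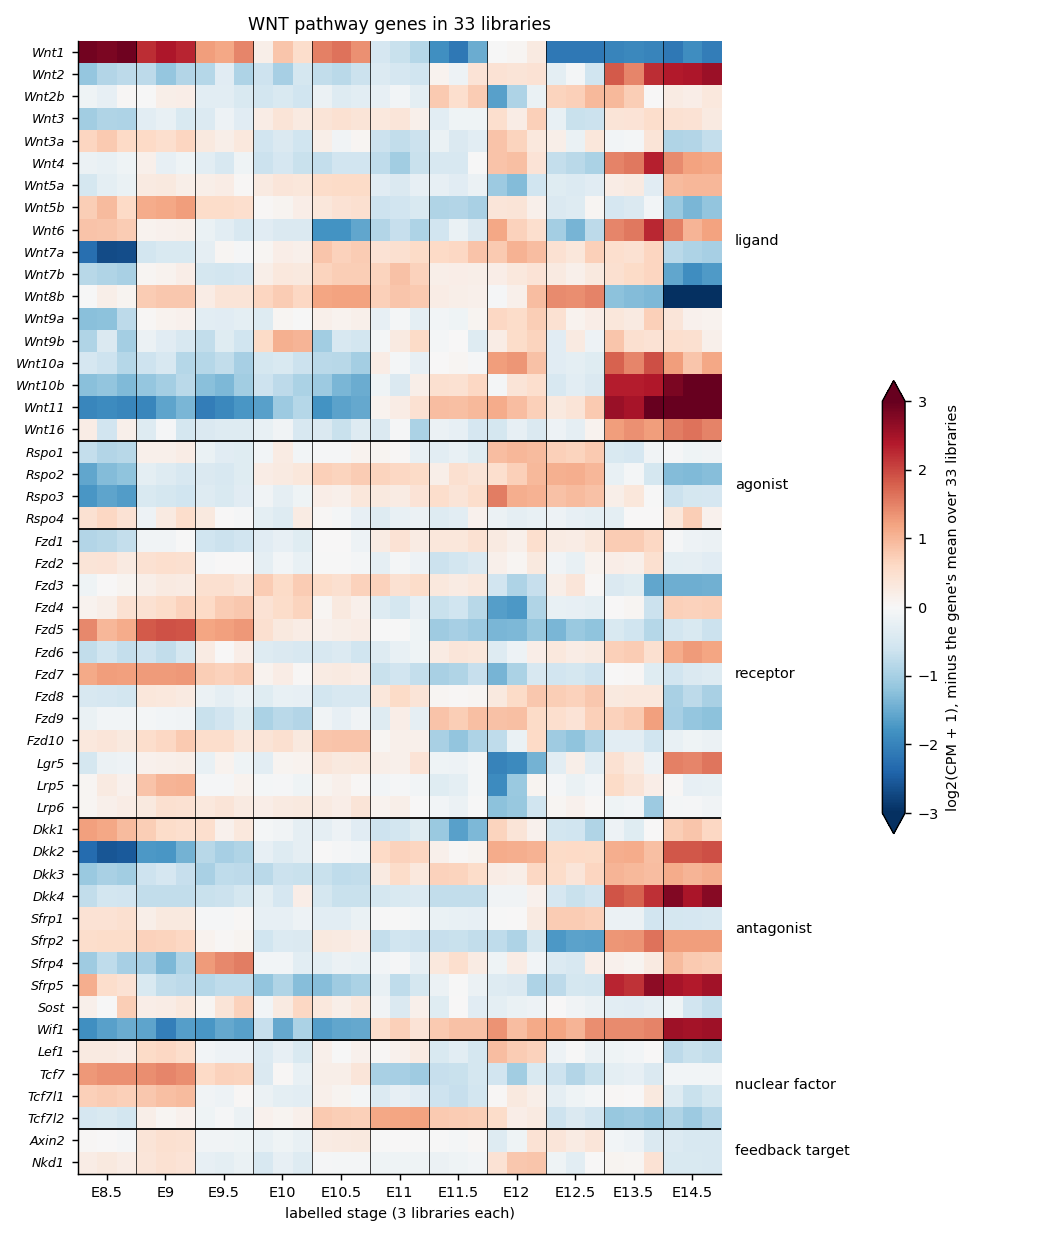
Level of each of the 51 tested genes (rows, by role) in each of 33 libraries (columns, 3 per labelled stage), as log2(CPM + 1) minus the gene's mean over the 33 libraries, so that red is above and blue below the gene's own mean. Wnt1 is highest at E8.5 and Wnt8b at E12.5, while Wnt10b, Wnt11, Dkk4 and Wif1 have their highest stage mean at E14.5, and the 3 columns of E12 differ among themselves.

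The ligand genes changed in composition and in total. Summed over the 19 ligands and divided by exonic length, their level was 77.0 ± 1.7 CPM per kb at E8.5, 98.8 ± 0.92 at E10.5, 85.4 ± 6.2 at E12.5, then 88.9 ± 4.8 at E14.5 (SD, n = 3 each). The lowest of the 11 stages was E9.5 with 69.4 ± 0.96 and the highest E13.5 with 124 ± 16 CPM per kb. On this per-length scale Wnt1, Wnt5b and Wnt6 led at E8.5, with 17.1%, 15.2% and 15.1% of the ligand sum. Wnt7b and Wnt8b together made up 47.5 ± 0.69% at E10.5, 52.9 ± 1.7% at E11, 39.2 ± 1.6% at E11.5, 32.9 ± 4.7% at E12 but again 50.1 ± 1.5% at E12.5 (SD, n = 3 each). Their share was 23.0 ± 2.0% at E13.5. At E14.5 these 2 genes held 5.74 ± 0.41%, and Wnt6, Wnt5a and Wnt11 led with 17.8%, 15.8% and 11.3%. The group of Wnt4, Wnt6, Wnt10a and Wnt10b held 19.3 ± 0.74% at E8.5, 3.98 ± 0.17% at E10.5, 6.38 ± 0.26% at E12.5 but 37.6 ± 1.6% at E14.5 (SD, n = 3 each).

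**Figure D2:**
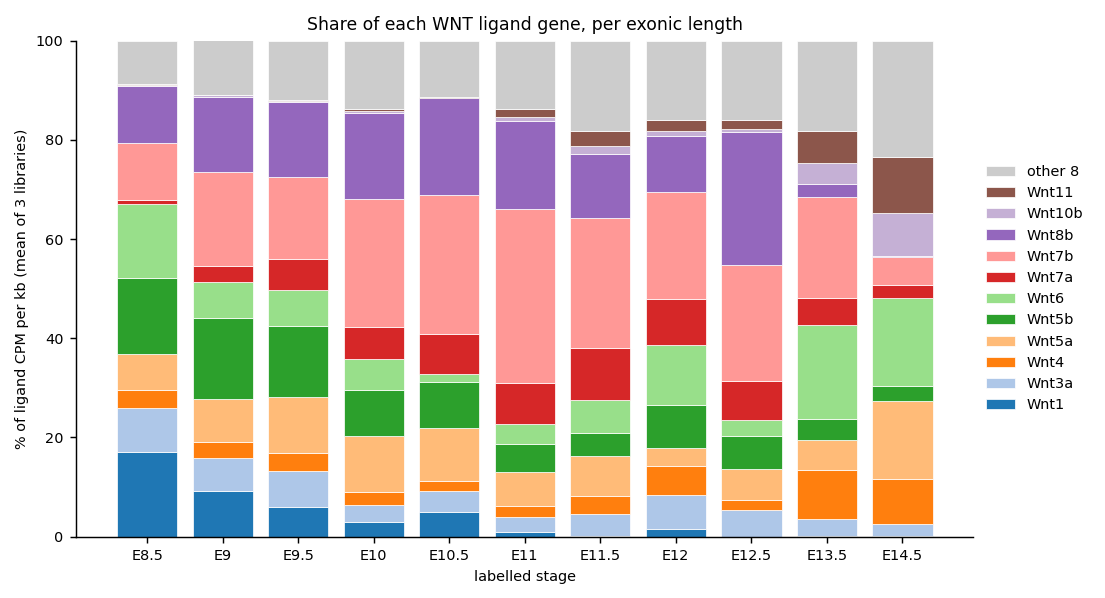
Share of each ligand gene in the summed CPM per kb of exonic length of the 19 ligand genes (bars, mean of 3 libraries per labelled stage). The 11 ligands that reach 8% at some stage have a colour each and the other 8 are pooled in grey; Wnt7b and Wnt8b make up 50.1% at E12.5 and 5.74% at E14.5.

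Wnt1, a ligand of the dorsal midline of the neural tube, and Wnt8b, a forebrain ligand, showed the largest falls of the ligands. Wnt1 stood at 0, 0.214 and 0.0458 CPM in the E14.5 libraries, against 31.6, 30.2 and 32.4 CPM in the E8.5 libraries. The E14.5 libraries held 5 counts of Wnt1 in all and every E8.5 library was far above them, with a log2 fold change of -8.42 ± 0.38 (SE; adjusted p = 2.4e-17). At E10.5 the libraries had 11.6, 12.6 and 10.3 CPM, below every E8.5 library (log2 fold change -1.45 ± 0.21, adjusted p = 1.18e-06). No Wnt1 count was seen in the 3 E12.5 libraries, which, with the floor set at 3 counts over the stage, puts Wnt1 at least 205-fold lower there than at E10.5 (adjusted p = 4.1e-14). The stages between did not fall evenly, with 0.231, 0 and 0.579 CPM at E11.5 but 3.35, 3.55 and 4.28 CPM at E12. The change in Wnt1 between E14.5 and E12.5 did not pass (adjusted p = 0.07), though it did without library a of E14.5 (adjusted p = 0.036) or library b or c of E11.5, with no filter (adjusted p = 0.038) and in DESeq2's test (adjusted p = 0.04).

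Wnt8b had 0.749, 0.214 and 0 CPM in the E14.5 libraries, against 79.0, 77.0 and 82.9 CPM in the E12.5 libraries and 28.4, 32.4 and 30.6 CPM in the E8.5 libraries. The late libraries lay far below both earlier sets, with log2 fold changes of -7.99 ± 0.30 against E12.5 (adjusted p = 1.98e-19) and -6.61 ± 0.31 against E8.5 (adjusted p = 9.6e-18). Wnt8b was higher at E10.5 than at E8.5 (log2 fold change 1.14 ± 0.18, adjusted p = 4.13e-06), and its E12.5 libraries were the highest of the series. The change between E12.5 and E10.5 did not pass (0.25 ± 0.17, adjusted p = 0.282). Between these stages Wnt8b was lower, with 33.7, 32.3 and 31.9 CPM at E11.5 and 28.2, 32.1 and 55.7 CPM at E12. With the E11.5 libraries in place of the E12.5 libraries the value against E10.5 was -1.04 (adjusted p = 1.03e-05). At E13.5 Wnt8b stood at 11.6, 11 and 10.7 CPM, between E12.5 and E14.5.

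Wnt7b and Wnt7a, ligands made in the forebrain and in ectoderm, were lower at E14.5 than at E12.5. Wnt7b had 27.4, 22 and 24.5 CPM in the E14.5 libraries, against 99.8, 90.9 and 101 CPM in the E12.5 libraries, which did not overlap (log2 fold change -1.98 ± 0.08, adjusted p = 2.67e-18). At E13.5, between these stages, it had 116, 123 and 130 CPM, above every E12.5 library, and its highest mean was 139 CPM at E11. Wnt7a had 26.8, 24.2 and 25.5 CPM in the E10.5 libraries, against 2.25, 1.42 and 1.46 CPM in the E8.5 libraries. That was the largest passing rise among the pathway genes in this comparison that reached 5 CPM (log2 fold change 3.90 ± 0.15, adjusted p = 6.95e-19). Wnt7a was lower again at E14.5, with 7.86, 7.28 and 6.87 CPM, than at E12.5, with 20.5, 18.8 and 24.8 CPM (log2 fold change -1.54 ± 0.12, adjusted p = 6e-12).

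The falls of Wnt8b, Wnt7b and Wnt7a between E12.5 and E14.5 stood beside falls of neural markers. Of all tested genes 28.6% were lower in this comparison. All 10 neural progenitor markers were lower at E14.5 than at E12.5, with a summed level of 252 to 266 CPM at E14.5, against 1460 to 1560 CPM at E12.5, and none was at 0 at either stage. Of 6 neuron markers (Dcx, Elavl3, Tubb3 and others), 4 were lower, 1 was higher and 1 did not pass, with sums of 473 to 500 CPM at E14.5 and 1220 to 1310 CPM at E12.5. At E8.5 the neural progenitor sum was 775 to 800 CPM, below that of E10.5 at 1930 to 1970 CPM, while Wnt1 was lower at E10.5. Between E14.5 and E8.5, 8 of the 10 neural progenitor markers were lower and 2 higher, and all 6 neuron markers were higher. Of all tested genes 33.5% were lower and 41.1% higher there. The part of neural tissue in the ligand changes was not tested.

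Wnt11, Wnt2 and Wnt10b were close to 0 at the start and rose late. Wnt11, a ligand of the non-canonical branch, had 43.3, 41.0 and 40.6 CPM in the E14.5 libraries, against 0.351, 0.426 and 0.351 CPM in the E8.5 libraries. Each late library was far above each early one, and the log2 fold change of 6.77 ± 0.29 was the largest rise of the ligands in this comparison (adjusted p = 8.57e-19). Its E12.5 libraries had 5.45, 5.87 and 8.01 CPM, against 0.504, 0.721 and 0.822 CPM in the E10.5 libraries (log2 fold change 3.21 ± 0.28, adjusted p = 9.38e-11). Wnt11 shares exonic bases with a predicted gene on the other strand, as do Wnt5a and Wnt7b, and without a stated strand setting the reads of such neighbours cannot be told apart.

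Wnt10b, a canonical ligand known for its action in osteoblast precursors and hair follicles, had 24.2, 27.0 and 27.6 CPM in the E14.5 libraries. It had 1.55, 1.82 and 1.60 CPM in the E12.5 libraries and 0.491, 0.568 and 0.409 CPM in the E8.5 libraries. The late libraries did not overlap with either set, with log2 fold changes of 3.98 ± 0.20 against E12.5 (adjusted p = 2.58e-16) and 5.74 ± 0.25 against E8.5 (adjusted p = 1.3e-18). Wnt2, a canonical ligand, had 10.53, 10.87 and 12.22 CPM in the E14.5 libraries, against 0.803, 1.14 and 0.475 CPM in the E12.5 libraries and 0, 0.213 and 0.292 CPM in the E8.5 libraries. Its log2 fold changes were 3.77 ± 0.36 against E12.5 (adjusted p = 3.21e-10) and 5.94 ± 0.47 against E8.5 (adjusted p = 2e-12), the second resting on 8 early counts. At E13.5, between these stages, Wnt10b stood at 17, 17 and 17.7 CPM, below every E14.5 library.

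Wnt6 and Wnt4, both made in surface ectoderm among other tissues, stood lower in E10.5 than in E8.5 libraries and higher in E14.5 than in E12.5 libraries. Wnt6 had 3.36, 3.35 and 4.11 CPM in the E10.5 libraries, against 26.4, 25.8 and 24.5 CPM in the E8.5 libraries. This was the largest fall of that comparison among the pathway genes that reached 5 CPM (log2 fold change -2.82 ± 0.21, adjusted p = 1.64e-12). At E14.5 the Wnt6 libraries had 41.6, 29.6 and 33.6 CPM, against 6.42, 4.67 and 7.71 CPM at E12.5 (log2 fold change 2.48 ± 0.19, adjusted p = 4.04e-12). Against E8.5 the E14.5 level was higher by 0.45 ± 0.17 on the log2 scale (adjusted p = 0.0211), a call lost without library c of E8.5 (0.42, adjusted p = 0.0651) or library a of E14.5 (0.30, adjusted p = 0.151). Wnt4 was higher at E14.5 than at E12.5 by 2.22 ± 0.19 on the log2 scale (adjusted p = 2.27e-11). Its E10.5 level was below that of E8.5 (log2 fold change -0.49 ± 0.19, adjusted p = 0.0326), a call lost with library totals alone (-0.32, adjusted p = 0.128) and in 5 of the 33 fits that left out a library (adjusted p up to 0.102), and its change between E12.5 and E10.5 did not pass (adjusted p = 0.397). Both genes had their highest mean at E13.5, with 51.9 ± 17 CPM for Wnt6 and 51.6 ± 18 CPM for Wnt4 (SD, n = 3 each).

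Wnt5a, the main non-canonical ligand of limb and facial mesenchyme, was highest at E14.5, with 108, 110 and 111 CPM, against 42.4, 41.5 and 43.2 CPM at E12.5 and 38.1, 44.8 and 48.0 CPM at E8.5. The E14.5 libraries overlapped with neither set (log2 fold change 1.37 ± 0.13 against E12.5, adjusted p = 3.1e-10). At E10.5 Wnt5a had 80.5, 82.4 and 82.2 CPM, above every E8.5 library (log2 fold change 0.90 ± 0.13, adjusted p = 1.12e-06). Its E12.5 level was below that of E10.5 (-0.95 ± 0.13, adjusted p = 8.24e-07). Between E14.5 and E8.5 its near relative Wnt5b moved in the other direction, with 7.65, 6.32 and 7.28 CPM at E14.5 and 30.6, 35.5 and 27.5 CPM at E8.5 (log2 fold change -2.14 ± 0.13, adjusted p = 5.08e-15). Wnt5b was lower in each of the 4 comparisons, although its fall between E10.5 and E8.5 (-0.37 ± 0.12, adjusted p = 0.0118) was lost without library b of E8.5 (adjusted p = 0.0989) or library a of E10.5 (adjusted p = 0.0539) and with library totals alone (-0.19, adjusted p = 0.155). Wnt3a, a canonical ligand, was also below its E8.5 level at E14.5 (log2 fold change -1.65 ± 0.15, adjusted p = 5.45e-11), whereas its relative Wnt3 was higher (1.56 ± 0.15, adjusted p = 1.02e-10).

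The other ligands were Wnt2b, Wnt8a, Wnt9a, Wnt9b, Wnt10a and Wnt16. Wnt10a and Wnt16 were higher at E14.5 than at E8.5 and at E12.5, with E14.5 means of 4.17 ± 0.76 and 5.82 ± 0.31 CPM (SD, n = 3 each). Wnt9a and Wnt9b were higher at E14.5 than at E8.5 but their change against E12.5 did not pass (adjusted p = 0.708 and 0.0759), that of Wnt9b passing without library b of E12.5 (adjusted p = 0.0226) and under 8 other alternatives, among them DESeq2's size factors (0.67, adjusted p = 0.042) and library totals alone (0.72, adjusted p = 0.0365). Wnt2b did not pass between E14.5 and E8.5 (adjusted p = 0.114), but it did without library c of E12 (0.39, adjusted p = 0.041), with library totals alone (0.82, adjusted p = 0.00406), with no filter (0.42, adjusted p = 0.016) and in a fit of only the stages compared (0.39, adjusted p = 0.00188). Wnt8a stood at or below 0.426 CPM in every library and was not tested.

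**Figure D3:**
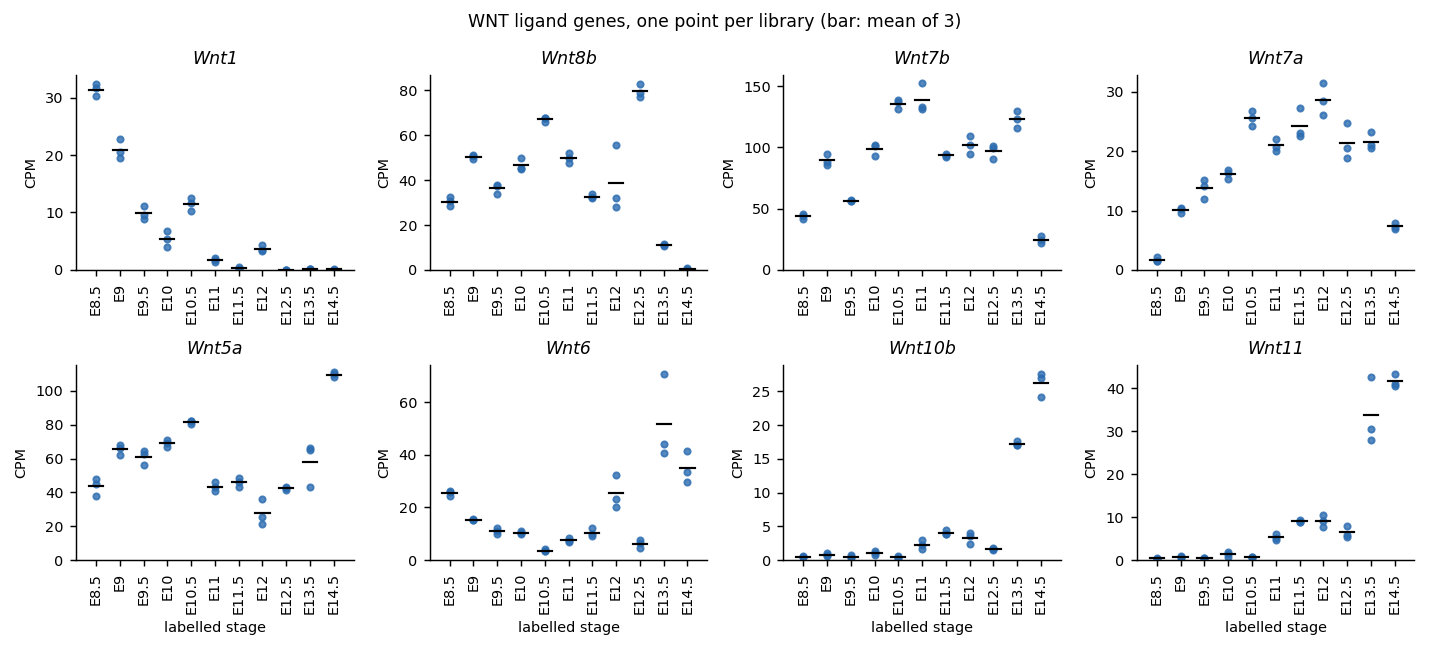
Level in CPM (linear axis from 0) of 8 ligand genes in each library (points) with the mean of the 3 libraries (bar) by labelled stage. Wnt1 is below 1 CPM at E11.5, higher at E12 and at 0 at E12.5. Wnt8b is highest at E12.5 at 77.0 to 82.9 CPM and below 1 CPM at E14.5, and Wnt10b and Wnt11 sit near 0 before E11 and at their highest mean at E14.5.

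The markers of surface tissues and bone also rose between E12.5 and E14.5, where 25.3% of all tested genes were higher and 28.6% lower. All 6 epidermis markers (Krt5, Krt14, Trp63 and others) were higher at E14.5 than at E12.5, with sums of 1030 to 1200 CPM at E14.5 and 75.1 to 87.1 CPM at E12.5, where Krtdap was at 0. At E8.5 the epidermis sum was 50.3 to 53.9 CPM, above the 14.4 to 17.2 CPM of E10.5, the stage at which Wnt6 was lowest. All 7 osteoblast markers were higher at E14.5 than at E12.5, with sums of 2420 to 2610 CPM at E14.5 against 268 to 326 CPM at E12.5. All 4 skeletal muscle markers were higher as well, with 191 to 217 CPM at E14.5 against 12.4 to 16.0 CPM at E12.5. Of the remaining lists, 4 of 7 cranial mesenchyme markers were higher and 1 lower, 3 of 4 meninges markers higher and 1 lower, 3 of 4 endothelium markers higher and none lower, and 3 of 4 cartilage markers higher and 1 lower. The part of these tissues in the ligand and antagonist changes was not tested.

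Promoters were searched for CTTTGATC, a core site of TCF and LEF factors, on both strands, in windows of 300 bases reaching from 250 before to 50 after the RefSeq start. Of the 52 genes 35 had a promoter in the RefSeq table (build GRCm38.p6), in 43 windows, and 2 of these held the motif, those of Wnt11 and Wnt5b. Of all 32851 windows 0.938% held it. The 250 bases before the start are shown for these genes, which moved in opposite directions between E14.5 and E8.5, and for Axin2, the common reporter gene of the canonical branch, with the motif or its reverse complement GATCAAAG in capitals. Wnt11 lies at chr7:98834862-98835111 on the plus strand, Wnt5b at chr6:119449387-119449636 on the minus strand and Axin2 at chr11:108920099-108920348 on the plus strand.
Wnt11: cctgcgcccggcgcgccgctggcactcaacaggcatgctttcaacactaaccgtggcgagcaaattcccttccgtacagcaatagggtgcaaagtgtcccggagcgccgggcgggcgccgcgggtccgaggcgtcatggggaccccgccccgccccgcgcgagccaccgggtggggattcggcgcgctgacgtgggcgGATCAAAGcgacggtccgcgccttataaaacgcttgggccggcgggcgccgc
Wnt5b: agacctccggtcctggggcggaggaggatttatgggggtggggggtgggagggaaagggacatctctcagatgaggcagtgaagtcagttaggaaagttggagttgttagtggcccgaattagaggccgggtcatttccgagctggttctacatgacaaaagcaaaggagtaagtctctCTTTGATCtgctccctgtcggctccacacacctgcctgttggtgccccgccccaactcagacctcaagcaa
Axin2: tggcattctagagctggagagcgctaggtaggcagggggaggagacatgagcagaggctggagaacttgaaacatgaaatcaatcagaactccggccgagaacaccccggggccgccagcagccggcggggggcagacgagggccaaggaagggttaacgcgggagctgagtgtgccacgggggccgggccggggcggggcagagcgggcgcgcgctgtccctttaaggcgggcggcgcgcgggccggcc
The match began 52 bases before the RefSeq start of Wnt11 and 71 bases before a RefSeq start of Wnt5b. That Wnt5b start lies inside the annotated gene (chr6:119432531-119544347). The Axin2 window held none of these letters. A match is a description of letters and shows no binding.

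The R-spondin genes Rspo1, Rspo2 and Rspo3 reached their highest means at E12 or E12.5, and each was lower at E14.5 than at E12.5. Summed per exonic length, the 4 R-spondins stood at 12.7 ± 0.21 CPM per kb at E8.5, 31.8 ± 1.6 at E10.5, 49.1 ± 0.43 at E12.5, then 21.5 ± 0.20 at E14.5 (SD, n = 3 each). Between E14.5 and E12.5, 3 of 4 were lower and only Rspo4 was higher, and between E12.5 and E10.5, 3 were higher and Rspo4 did not pass. Of all tested genes 28.6% were lower in the first of these comparisons and 18.8% higher in the second. Rspo4 was at or below 1.18 CPM in every library, and its late rise did not pass without library b of E14.5 (adjusted p = 0.0604).

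Rspo2, known for its action in limb and craniofacial outgrowth, had 9.09, 8.89 and 9.24 CPM in the E14.5 libraries, against 50.8, 51.4 and 48.3 CPM in the E12.5 libraries (log2 fold change -2.47 ± 0.12, adjusted p = 5.47e-17). The E14.5 libraries lay within the range of the E8.5 libraries, which had 7.44, 9.09 and 9.70 CPM, and this difference did not pass (log2 fold change 0.05 ± 0.13, adjusted p = 0.726), although with library totals alone the value was 0.48 and passed (adjusted p = 0.00621). At E10.5 Rspo2 had 39.8, 38.5 and 41.3 CPM, above every E8.5 library (log2 fold change 2.18 ± 0.12, adjusted p = 2.45e-15). Rspo3, best known for vascular and placental development, had 24.2, 23.6 and 26.7 CPM in the E10.5 libraries, against 5.55, 6.32 and 5.85 CPM in the E8.5 libraries (log2 fold change 2.07 ± 0.12, adjusted p = 1.13e-14).

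Rspo1, which in mouse acts in ovary and gut among other tissues, was the most abundant of the 4 per exonic length, with 8.76 CPM per kb at E8.5, 15.9 at E10.5, 26.2 at E12.5 and a lower 14.9 at E14.5. Its CPM was lower at E14.5 than at E12.5 (log2 fold change -0.82 ± 0.10, adjusted p = 4.76e-08). With the E11.5 libraries in place of the E12.5 libraries this turned to 0.23. The E12.5 rise over E10.5 of 0.72 for Rspo1 and 0.33 for Rspo2 then turned to -0.32 and -0.38, so that these directions did not hold at E11.5. At E12 Rspo1 had 59.4, 61.6 and 60.4 CPM, above every E12.5 library. Rspo2 had 34.1, 39.6 and 47.3 CPM there, a range that took in its E10.5 libraries. The Rspo2 rise between E12.5 and E10.5 (adjusted p = 0.0151) was also lost without library b of E10.5 (adjusted p = 0.0611) or library b of E12.5 (adjusted p = 0.0504) and with no filter (adjusted p = 0.0573). Rspo3 shares exonic bases with a predicted gene on the other strand.

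The secreted antagonists changed in level and in composition between E14.5 and E12.5. Of 10, 8 were higher at E14.5, Sfrp1 was lower and Sost did not pass. Of all tested genes 25.3% were higher and 28.6% lower. Their sum per exonic length was 147 ± 0.68 CPM per kb at E8.5, 109 ± 0.73 at E10.5, 133 ± 0.46 at E12.5, then 212 ± 2.1 at E14.5 (SD, n = 3 each). Sfrp1 made up 49.9% of it at E8.5, 41.0% at E10.5, 68.0% at E12.5 but 17.8% at E14.5, while Sfrp2 made up 40.1% at E8.5, 44.6% at E10.5, 9.5% at E12.5 but 46.2% at E14.5.

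Sfrp1 and Sfrp2 encode secreted Frizzled-related proteins that bind WNT ligands. Sfrp1 had 162, 166 and 168 CPM in the E14.5 libraries, against 401, 402 and 388 CPM in the E12.5 libraries (log2 fold change -1.26 ± 0.08, adjusted p = 1.04e-13). Sfrp2 had 209, 212 and 212 CPM in the E14.5 libraries, against 26.0, 28.0 and 27.9 CPM in the E12.5 libraries (log2 fold change 2.95 ± 0.09, adjusted p = 1.76e-21). Neither gene overlapped between these stages, and they moved in opposite directions. Between E12.5 and E10.5 the directions were the reverse, with Sfrp2 lower in the E12.5 libraries than in the E10.5 libraries, which had 107, 106 and 101 CPM (log2 fold change -1.94 ± 0.09, adjusted p = 4.65e-17), and Sfrp1 higher (log2 fold change 1.02 ± 0.08, adjusted p = 2.69e-11). With the E11.5 libraries in place of the E12.5 libraries the Sfrp1 value was 0.04 and did not pass (adjusted p = 0.681). Sfrp2 shares exonic bases with a predicted gene on the other strand.

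The Dickkopf genes differed in course. Dkk4, an antagonist known from ectodermal placodes, had 10.4, 8.19 and 10.1 CPM in the E14.5 libraries, against 0.172, 0.0519 and 0.119 CPM in the E12.5 libraries and 0, 0.142 and 0.117 CPM in the E8.5 libraries. It was near 0 up to E12.5, with 5.13, 4.69 and 6.61 CPM at E13.5, and its log2 fold changes were 6.32 ± 0.43 against E12.5 (adjusted p = 2.08e-12) and 6.65 ± 0.46 against E8.5 (adjusted p = 9.44e-13), resting on 6 and 4 counts at the earlier stages.

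Dkk2, which can act on Lrp6 in either direction, was highest at E14.5 with 94.5, 94.2 and 98.8 CPM and lowest at E8.5 with 4.28, 3.41 and 3.57 CPM (log2 fold change 4.67 ± 0.10, adjusted p = 1.47e-25). At E10.5 it had 25.4, 24.4 and 23.8 CPM, above every E8.5 library (log2 fold change 2.71 ± 0.10, adjusted p = 2.9e-19), and it was higher in all 4 comparisons. Dkk3, a divergent member of the family, had 42.7, 37.4 and 45.4 CPM in the E12.5 libraries, against 17.8, 16.6 and 17 CPM in the E10.5 libraries (log2 fold change 1.29 ± 0.11, adjusted p = 3.93e-11), and was likewise higher in all 4 comparisons. The Dkk3 call between E10.5 and E8.5 was lost without library a of E8.5 (0.27, adjusted p = 0.103) and with no filter (0.33, adjusted p = 0.0672), and the Dkk2 call between E12.5 and E10.5 with the E11.5 libraries in place of the E12.5 libraries (0.13, adjusted p = 0.186).

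Dkk1, the classic Lrp5 and Lrp6 antagonist, first fell and then rose. It had 5.88, 6.38 and 5.55 CPM in the E10.5 libraries, against 18.3, 17.3 and 15.0 CPM in the E8.5 libraries (log2 fold change -1.50 ± 0.16, adjusted p = 4e-09). At E14.5 it had 12.7, 13.6 and 11.6 CPM, above the 4.65, 4.41 and 3.44 CPM of E12.5 (log2 fold change 1.60 ± 0.17, adjusted p = 1.75e-09). Its E14.5 level was below that of E8.5 (log2 fold change -0.41 ± 0.15, adjusted p = 0.0151), but with scaling by library totals alone this value was 0.02 and did not pass, nor did it pass without library a of E8.5 (adjusted p = 0.0726) or library c of E14.5 (adjusted p = 0.0639), or with no filter (adjusted p = 0.0638).

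Wif1, which binds ligands and is expressed at sites of cartilage and bone formation, had 10.61, 9.295 and 12.52 CPM in the E12.5 libraries, against 0.616, 0.721 and 0.770 CPM in the E10.5 libraries. This was the largest passing rise among the pathway genes in this comparison (log2 fold change 3.92 ± 0.24, adjusted p = 4.35e-14), and the E14.5 libraries were higher still with 28.9, 28.0 and 28.8 CPM. Sfrp5 had 12.4, 11.6 and 12.9 CPM in the E14.5 libraries, against 0.402, 0.675 and 0.652 CPM in the E12.5 libraries (log2 fold change 4.39 ± 0.35, adjusted p = 5.43e-12). Its E8.5 libraries had 4.21, 2.48 and 2.28 CPM, above E12.5 and below E14.5. Sfrp4 was higher at E14.5 than at E12.5, with 4.71 to 5.56 CPM at E14.5 against 1.45 to 2.91 CPM at E12.5 (adjusted p = 3.43e-06). Sost, the sclerostin gene of mature osteocytes, was at or below 1.99 CPM in every library, and its change between E14.5 and E12.5 (adjusted p = 0.0626) passed only without library a of E14.5 (adjusted p = 0.00399).

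**Figure D4:**
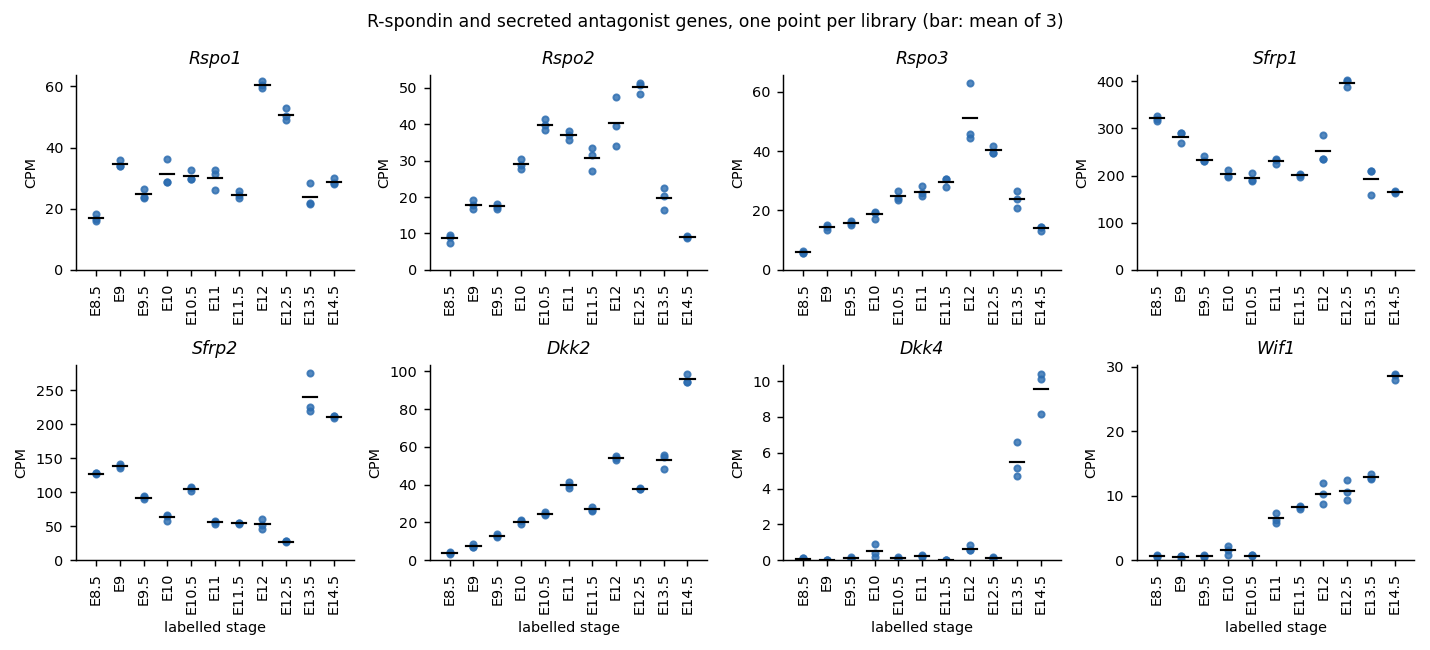
Level in CPM (linear axis from 0) of 3 R-spondin genes and 5 secreted antagonist genes in each library (points) with the mean of the 3 libraries (bar) by labelled stage. Rspo1, Rspo2 and Rspo3 reach their highest means at E12 or E12.5, Sfrp1 peaks at E12.5 where Sfrp2 is lowest, and Dkk2, Dkk4 and Wif1 are highest at E14.5.

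The receptor sum per exonic length was 171 ± 3.6 CPM per kb at E8.5, 164 ± 0.48 at E10.5, 146 ± 4.9 at E12.5, then 120 ± 1.9 at E14.5 (SD, n = 3 each). The course between these stages was uneven, with 209 ± 6.0 at E9, 130 ± 5.5 at E11.5 and 163 ± 5.7 CPM per kb at E13.5. Frizzled genes encode the membrane-spanning WNT receptors. Fzd2 led this sum at E8.5, E12.5 and E14.5, with 29.1%, 25.3% and 26.3%. Fzd7, the next at E8.5 with 20.2%, held 8.98% at E14.5, and its CPM at E14.5 was below that of E8.5 (log2 fold change -1.69 ± 0.13, adjusted p = 1.15e-12).

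Fzd5, an eye and forebrain receptor, had 7.54, 8.19 and 7.05 CPM in the E14.5 libraries, against 33.3, 24.1 and 26.2 CPM in the E8.5 libraries (log2 fold change -1.88 ± 0.12, adjusted p = 1.03e-14). Its E12.5 libraries had 3.90, 4.78 and 4.45 CPM, against 12.8, 13.3 and 13.8 CPM in the E10.5 libraries (log2 fold change -1.60 ± 0.13, adjusted p = 1.96e-11). The lowest values thus lay at E12 and E12.5, and the E14.5 libraries were above E12.5 (log2 fold change 0.79 ± 0.13, adjusted p = 7.93e-06). Fzd10 had 19.7, 17.8 and 21.8 CPM in the E12.5 libraries, against 75.9, 77.7 and 77.8 CPM in the E10.5 libraries (log2 fold change -1.96 ± 0.18, adjusted p = 4.28e-10).

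Fzd8 and Fzd9 were both lower at E14.5 than at E12.5. Fzd8, a forebrain receptor, had 94.1, 91.2 and 99.6 CPM in the E12.5 libraries, against 38.3, 40.1 and 39.9 CPM in the E10.5 libraries (log2 fold change 1.27 ± 0.09, adjusted p = 1.7e-12). At E14.5 its libraries had 28.0, 32.0 and 28.4 CPM, lower than at E12.5 (log2 fold change -1.69 ± 0.09, adjusted p = 1.26e-15). Against E8.5 the E14.5 value was -0.42 ± 0.09 (adjusted p = 0.000191), and 0.02 with library totals alone. Fzd9, deleted in Williams syndrome in humans and active in osteoblasts in mice, had 7.27, 6.37 and 5.95 CPM in the E14.5 libraries, against 22.1, 20.7 and 26.0 CPM in the E12.5 libraries (log2 fold change -1.81 ± 0.15, adjusted p = 1.81e-11). At E13.5 Fzd9 had 25.4, 27.4 and 37.6 CPM, its highest stage mean. Fzd5 and Fzd6 share exonic bases with predicted genes on the other strand.

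Fzd6, a planar polarity receptor of skin, was highest at E14.5, with 44.2, 49.6 and 46.2 CPM, against 11.4, 12.8 and 11.7 CPM at E8.5 (log2 fold change 1.97 ± 0.12, adjusted p = 3.29e-15). Lgr5, an R-spondin receptor and stem cell marker of several epithelia, had 27.4, 26.3 and 29.3 CPM at E14.5, against 7.06, 10.3 and 7.06 CPM at E12.5 (log2 fold change 1.76 ± 0.17, adjusted p = 2.24e-10). Lgr5 thus stood at its highest at E14.5, where Rspo1, Rspo2 and Rspo3 were lower than at E12.5. Fzd3, a polarity receptor of axon tracts, was lower at E14.5 than at E12.5 (log2 fold change -1.67 ± 0.17, adjusted p = 8.9e-10). The co-receptors Lrp5 and Lrp6 were the only genes of the 51 that passed in none of the 4 comparisons, with log2 fold changes between E14.5 and E8.5 of -0.30 ± 0.23 (adjusted p = 0.247) and -0.21 ± 0.15 (adjusted p = 0.212). These 2 calls rested on which libraries were in the fit. Without library c of E12 the Lrp5 value passed (-0.29, adjusted p = 0.0282), and without library c of E13.5 the Lrp6 value did (-0.22, adjusted p = 0.0467). In a fit of only the stages compared both passed, with -0.28 for Lrp5 (adjusted p = 0.000896) and -0.20 for Lrp6 (adjusted p = 0.00143), as they did without the libraries of E11.5, E12 and E13.5 (adjusted p = 0.000539 and 0.00165). With the trend with gene length removed they stood at -0.42 (adjusted p = 0.0394) and -0.47 (adjusted p = 6.52e-07).

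All 4 nuclear factor genes stood below their E8.5 level at E14.5. Lef1, a TCF and LEF factor that is itself a canonical target in many tissues, had 13.3, 14.6 and 13.8 CPM in the E14.5 libraries, against 21.3, 23.4 and 20.9 CPM in the E12.5 libraries and 28.9, 28.8 and 28.1 CPM in the E8.5 libraries. Every E14.5 library was below all of these, with log2 fold changes of -0.66 ± 0.09 against E12.5 (adjusted p = 2.92e-07) and -1.04 ± 0.09 against E8.5 (adjusted p = 1.11e-11). At E10.5 Lef1 had 26.5, 23.7 and 26.2 CPM, a difference from E8.5 that did not pass (adjusted p = 0.113), and the E12.5 level was below the E10.5 level (log2 fold change -0.22 ± 0.09, adjusted p = 0.0466), a call lost under 7 alternatives, among them DESeq2's size factors (adjusted p = 0.0826) and library totals alone (-0.10, adjusted p = 0.381), and in 19 of the 33 fits that left out a library (adjusted p up to 0.145). The difference between E10.5 and E8.5 passed without library a or c of E12 (adjusted p = 0.0377 and 0.0398). It also passed under DESeq2's size factors (-0.22, adjusted p = 0.0345) and its test (adjusted p = 0.0289), with a filter of 1 CPM in 3 libraries (adjusted p = 0.0381), with the length trend removed (-0.37, adjusted p = 0.00863), in a fit of only the stages compared (adjusted p = 0.0276) and without the libraries of E11.5, E12 and E13.5 (adjusted p = 0.0252). Lef1 was highest at E12, with 46.3, 41.3 and 38.9 CPM.

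Tcf7 (TCF1) had 18.7, 18.6 and 21.3 CPM in the E10.5 libraries, against 41.7, 44.2 and 43.8 CPM in the E8.5 libraries (log2 fold change -1.15 ± 0.11, adjusted p = 9.42e-10). It was lower again at E12.5, and at E14.5 stood at 15.3, 15.5 and 15.5 CPM, above the 10.15, 8.464 and 10.02 CPM of E12.5 (log2 fold change 0.69 ± 0.12, adjusted p = 1.44e-05). Tcf7l1 (TCF3), a repressor in the absence of beta-catenin, led the 4 per exonic length at E8.5, E12.5 and E14.5, with 48.8%, 53.6% and 46.7% of their sum. Tcf7l2 (TCF4) took a different course and held 46.1% at E11, with 114, 115 and 117 CPM there, against 35.0, 36.5 and 33.9 CPM at E8.5. Its E14.5 level was below that of E8.5 (log2 fold change -0.45 ± 0.08, adjusted p = 1.23e-05).

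Axin2 had 60.9, 58.7 and 58.0 CPM in the E14.5 libraries, against 105, 96.5 and 106 CPM in the E12.5 libraries and 84.1, 81.8 and 80.0 CPM in the E8.5 libraries. The E14.5 libraries were below all others of these stages, with log2 fold changes of -0.79 ± 0.11 against E12.5 (adjusted p = 8.66e-07) and -0.47 ± 0.12 against E8.5 (adjusted p = 0.000588). At E10.5 it had 97.6, 98.8 and 100 CPM, above every E8.5 library, but the log2 fold change of 0.27 ± 0.11 passed narrowly (adjusted p = 0.049) and was lost under 6 alternatives, among them DESeq2's size factors (adjusted p = 0.118), and in 29 of the 33 fits that left out a library (adjusted p up to 0.139). The change between E12.5 and E10.5 did not pass (log2 fold change 0.05 ± 0.11, adjusted p = 0.768). Nkd1 had 49.9, 49.9 and 49.2 CPM at E14.5, against 62.2, 55.0 and 69.1 CPM at E12.5 and 80.6, 83.9 and 79.9 CPM at E8.5, and was lower in both comparisons (log2 fold changes -0.32 ± 0.10, adjusted p = 0.00545, and -0.71 ± 0.10, adjusted p = 1.14e-07), the first being lost without library c of E12.5 (adjusted p = 0.0556), with library totals alone (-0.18, adjusted p = 0.163) and with no filter (adjusted p = 0.0766). Axin2, Lef1 and Tcf7l1 share exonic bases with predicted genes on the other strand.

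The late falls of these small groups depended in part on scaling. With library totals alone in place of composition-corrected scaling, the median log2 fold change of all tested genes between E14.5 and E8.5 moved by 0.43 to 0.59. Axin2 then stood at -0.04 (adjusted p = 0.834) and Tcf7l2 at -0.02 (adjusted p = 0.816), while Lef1, Tcf7, Tcf7l1 and Nkd1 kept their calls in this comparison.

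**Figure D5:**
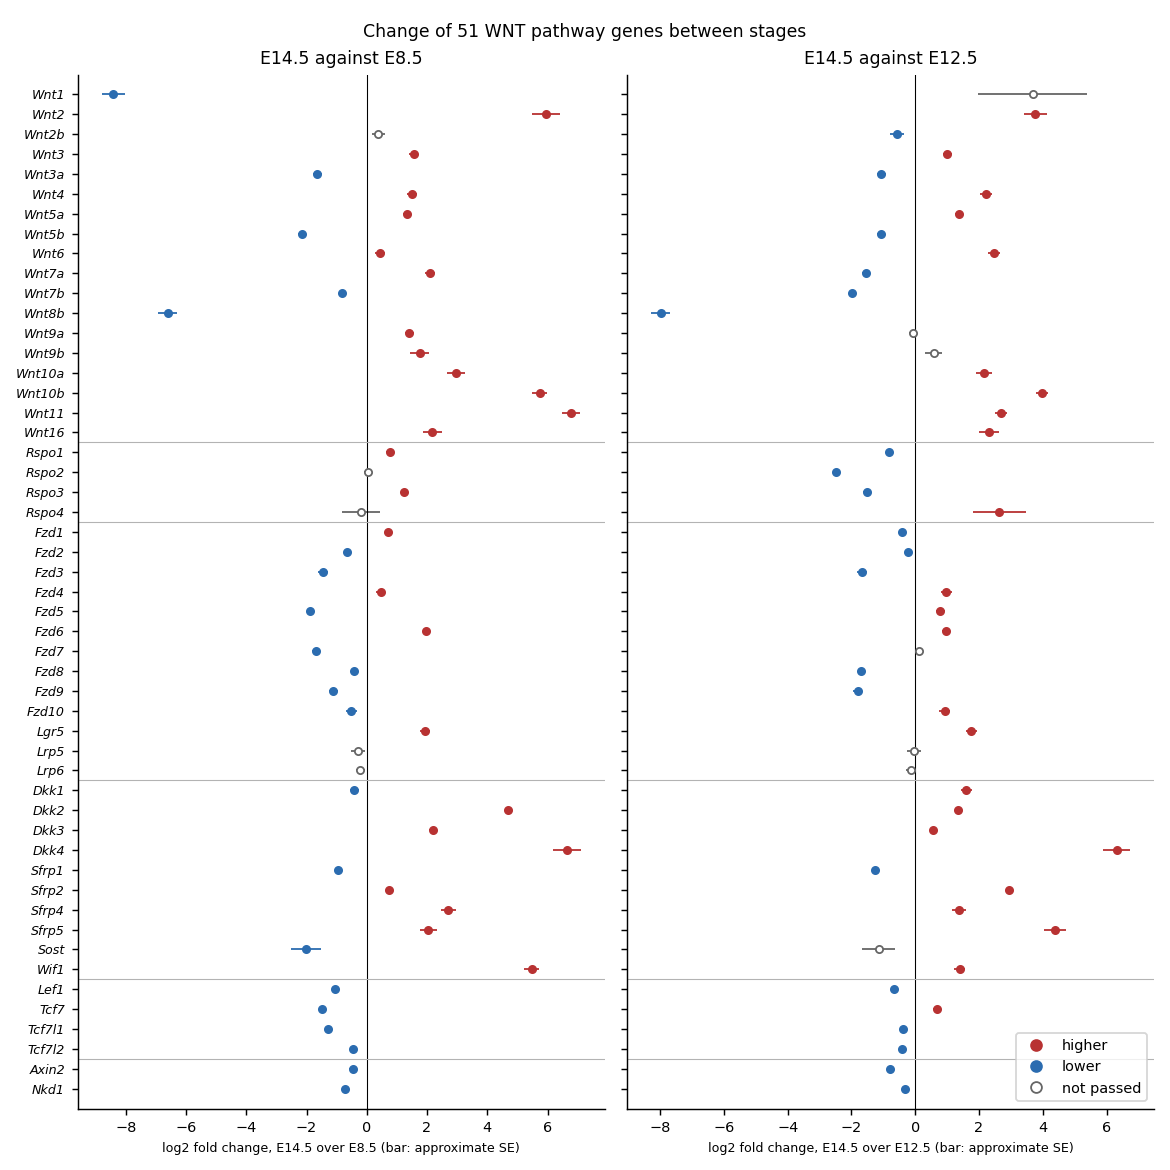
Log2 fold change with its approximate SE (bars) of the 51 tested genes, by role, for E14.5 over E8.5 (left) and E14.5 over E12.5 (right); red is higher and blue lower at E14.5 at an adjusted p below 0.05, and open grey did not pass. The 3 abundant R-spondins lie left of 0 and 8 of 10 antagonists right of 0 for E14.5 over E12.5, and the fitted Wnt1 value in that panel has no count at E12.5 behind it.

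Other genes of the pathway were counted by list, to be read against the shares over all tested genes, which were 25.3% higher and 28.6% lower between E14.5 and E12.5 and 41.1% higher and 33.5% lower between E14.5 and E8.5. Of 18 genes of the cytoplasmic relay and destruction complex (Dvl1, Ctnnb1, Apc, Gsk3b and others), 11 were lower at E14.5 than at E12.5, none was higher and 7 did not pass, with a median log2 fold change of -0.36. The largest fall was that of Apc2, a brain-enriched relative of Apc, with 40.2 ± 2.8 CPM at E14.5 against 216 ± 25 CPM at E12.5 (SD, n = 3 each; log2 fold change -2.42 ± 0.14, adjusted p = 3.34e-15). Between E14.5 and E8.5, 4 of the 18 were higher and 9 lower, led by Pygo1, a nuclear co-factor of beta-catenin (1.39 ± 0.11, adjusted p = 1.57e-12), and Axin1, the constitutive scaffold of the destruction complex (-1.01 ± 0.07, adjusted p = 2.96e-13).

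Of 15 genes for ligand secretion and co-receptors, 8 were higher at E14.5 than at E12.5 and 4 lower. Kremen2, a DKK1 receptor, rose most, with 34.8 ± 0.31 CPM at E14.5 and 2.90 ± 0.084 CPM at E12.5 (SD, n = 3 each; log2 fold change 3.59 ± 0.22, adjusted p = 1.14e-14). Ror2, a WNT5A receptor, was lower in E14.5 than in E8.5 libraries (-1.37 ± 0.10, adjusted p = 1.72e-13), whereas Wnt5a was higher. Of 10 further secreted antagonists, 5 were higher at E14.5 than at E12.5 and 3 lower. Shisa3, which retains Frizzled proteins inside the cell, rose most (log2 fold change 3.30 ± 0.14, adjusted p = 6.05e-18) and Draxin, an axon guidance protein that binds Lrp6, fell most (-2.84 ± 0.16, adjusted p = 1.86e-15). Frzb, a Frizzled-related antagonist of cartilage, fell most between E14.5 and E8.5 (-2.46 ± 0.11, adjusted p = 4.21e-18).

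Of 10 planar polarity genes, 5 were higher and 5 lower at E14.5 than at E12.5. Prickle3 rose most (1.49 ± 0.15, adjusted p = 7.05e-10) and Celsr2, a cadherin of neural tissue, fell most (-2.42 ± 0.22, adjusted p = 8.85e-11). Of 10 further common targets, 5 were higher and 2 lower. Cd44, a hyaluronan receptor, rose most (2.68 ± 0.14, adjusted p = 5.31e-16) and Ccnd1, cyclin D1, fell most (-0.79 ± 0.19, adjusted p = 0.000956). Sp5, a zinc finger factor closely tied to canonical signalling, was below its E8.5 level at E14.5 (-1.79 ± 0.19, adjusted p = 6.64e-10), the same direction as Axin2 and Nkd1. Between E14.5 and E8.5, 7 of the 15 secretion and co-receptor genes were higher and 3 lower, 4 of the 10 further antagonists higher and 4 lower, and 6 of 10 higher and 3 of 10 lower in both the polarity and the target list. Between E12.5 and E10.5, where 18.8% of all tested genes were higher and 17.2% lower, 5 secretion and co-receptor genes were higher and 2 lower, 2 further antagonists higher and 4 lower, 3 relay genes higher and 4 lower, 2 polarity genes higher and 3 lower, and 2 further targets higher and 1 lower. Between E10.5 and E8.5, with 28.2% of all higher and 21.3% lower, these counts were 3 and 3, 3 and 4, 5 and 4, 6 and 2, and 1 and 5 for the lists in the same order. In that comparison the largest moves over all 5 lists were those of Shisa3 (4.31 ± 0.17, adjusted p = 8.84e-19) and Myc (-2.27 ± 0.10, adjusted p = 1.6e-17).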

How the data were processed

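Gene counts of 33 libraries were analysed, 3 at each of 11 stages. Per the file headers and its values, the deposited matrix is of raw counts, with a further column of exonic gene length. The submitters' processing notes name cutadapt 1.9.1, HISAT2 2.0.1, HTSeq 0.6.1 and the build GRCm38; neither annotation nor strand setting is named in the sources used here. Columns were tied to stages by name; their letters a, b and c could not be tied to replicate numbers and serve as names. Symbols came from GENCODE M21 (55141 of 55401 identifiers matched).

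Genes passing edgeR's expression filter (20073) were scaled with TMM factors (0.797 to 1.18) and fitted with a mean per stage over all libraries (edgeR 4.0.16, R 4.3.3, 22 residual degrees of freedom), with F-tests adjusted by Benjamini-Hochberg over all tested genes and passing below 0.05. SE is the log2 fold change divided by the root of its F, an approximation that is poor at few counts. CPM are TMM-scaled, and were divided by exonic length to compare genes. Floors (3 counts over a stage) cover counting error only. Libraries of a stage differed beyond sampling noise (mean chi-square per gene at least 1.85).

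Values in every library are given, per comparison, for the 4 largest passing rises and 4 largest passing falls that reach 5 CPM in the higher stage, and for Axin2 and Lef1; a few further genes with library values were chosen after their values were seen. The members, gene lists and marker lists (5 pathway and 9 marker lists) were chosen with earlier results of these data known. Alternatives were DESeq2 1.42.0 and its size factors, library totals alone, other filters, a block on the letter, removal of a gene length trend, other sets of stages, and each library left out in turn. The method was tested on simulated data. Figures used matplotlib 3.10.9.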

Additional observations from a re-analysis of the deposited data

How the results depend on the processing

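Among the counts of genes passing in each comparison, 2 moved by over 1.5 times. With library totals alone, 10 genes fell at E10.5 relative to E8.5, and with E11.5 libraries in place of E12.5, 24 fell relative to E10.5. Over all tested genes the lower counts moved in the same directions, from 4272 to 2728 in the first case and from 3444 to 5595 in the second. With each library left out in turn, higher and lower counts ranged over 24 to 26 and 20 to 22 (E14.5 against E8.5), 15 to 18 and 13 to 18 (E10.5 against E8.5), 16 to 19 and 12 to 17 (E12.5 against E10.5), and 23 to 25 and 17 to 20 (E14.5 against E12.5); all 51 genes still differed over the stages. Library totals alone also moved the share of higher calls among the pathway genes that passed to 66.7% between E10.5 and E8.5, from 51.4%. Among all tested genes that passed, this share moved as well, to 72.5% from 57%.

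A few log2 fold changes turned direction. For E14.5 against E8.5 with library totals alone, Dkk1 and Fzd8 were both at 0.02. With the length trend removed, Lrp6 was at -0.19 for E10.5 against E8.5. With E11.5 libraries in place of E12.5, the values against E10.5 were -0.29 for Axin2, -0.40 for Wnt3a, 0.02 for Tcf7l2, -0.32 for Rspo1, -3.74 for Dkk4, -1.04 for Wnt8b and -0.38 for Rspo2, and those of E14.5 against them were 0.23 for Rspo1, 0.24 for Fzd2 and 0.09 for Tcf7l1. The cause was not tested.

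The column letters showed no pairing common to all stages. Deviations of libraries with the same letter correlated with a median of -0.00313 across stages (range -0.582 to 0.18). Those with different letters had a median of 0.000772 (range -0.316 to 0.468). As medians over all pairs of stages, these cannot tell if a few stages were paired. With the replicate block on the letter, the calls for Axin2 between E10.5 and E8.5 (0.27, adjusted p = 0.0585) and Lef1 between E12.5 and E10.5 (-0.22, adjusted p = 0.0512) were lost and no other call of these genes changed. Genes near 0 counts, such as Wnt1 and Dkk4, are limited by depth.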
